A study of Mus musculus with 138 samples.

Results

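The 10 genes described here are known from tendon, ligament and other tissues under load, and were taken by name from the 55487 genes counted: Scx, Mkx, Tnmd, Thbs1, Thbs2, Thbs4, Tnc, Tnn, Postn and Egr1. They were measured in calvarial sutures, the joints between the flat skull bones, of wild-type C57BL/6J mouse embryos. By laser capture, the suture mesenchyme (SM) between the bones and the osteogenic fronts (OFs) at the growing bone edges were cut from sections of 4 sutures (coronal, frontal, lambdoid and sagittal) at the embryonic stages E16.5 and E18.5, and their RNA was amplified and sequenced in bulk. The coronal suture was cut into SM, frontal OF and parietal OF, the frontal suture into SM and frontal OF, the lambdoid suture into SM, interparietal OF and parietal OF, and the sagittal suture into SM and parietal OF. This gave 20 groups of 5 libraries, in which SM and OF of the same suture, age and replicate number carry the same litter id, with 40 such ids in all. No group carried a mutation or a treatment. A further 18 repeat libraries of coronal regions and 16 libraries of complete E18.5 sutures were used only where stated. Dissociated coronal sutures gave 4 single-cell libraries, 2 at each age, each from the pooled sutures of many embryos.

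Tendons and ligaments form from fibroblasts that lay down parallel collagen fibres under the control of the transcription factors Scx (scleraxis) and Mkx (mohawk), and of the early growth response factor Egr1, which is also switched on within minutes by many stimuli in most cells. Tenomodulin (Tnmd) is a membrane glycoprotein of mature tendon cells and a target of Scx. Thrombospondins (Thbs1, Thbs2, Thbs4), tenascins (Tnc, Tnn) and periostin (Postn) are matricellular proteins, which are secreted into the matrix and tune how cells hold on to it rather than bearing load themselves. Tnn, also called tenascin-W, and Postn are known from periosteum and developing bone as well as from fibrous tissue. The SM is itself a fibrous tissue stretched between bones, so that SM against OF asks on which side of the bone edge each gene was expressed.

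In mm10, the build of the files, no members overlap each other. Scx spans chr15:76457452-76459458 (+), Tnmd chrX:133850980-133865577 (+), Thbs1 chr2:118111876-118127133 (+), Thbs2 chr17:14665500-14694235 (-), Thbs4 chr13:92751590-92794818 (-), Tnc chr4:63959785-64047015 (-), Tnn chr1:160085029-160153580 (-) and Postn chr3:54361109-54391037 (+). The positions of Mkx and Egr1 are given where these genes are described. Counts were taken over the exons of each gene. RefSeq promoter sequences of the same build (GRCm38.p6) were found for 6 of the 10 members. The 250 bases before a start listed by RefSeq, which need not be the end of the gene as spanned above, are printed for 3 of them, Tnmd and Thbs2 as members that differed widely between SM and OF, and Tnc as the member whose promoter held both motifs searched. The motifs were the E-box CANNTG, the letters bound by basic helix-loop-helix factors such as Scx, and the EGR letters GCGNGGGCG, both searched on both strands, and their matches stand in capitals. The Tnmd promoter (chrX:133850758-133851007, + strand) held no match to either, the Thbs2 promoter (chr17:14694263-14694512, - strand) held 1 E-box, and the Tnc promoter (chr4:64046937-64047186, - strand) held 2 E-boxes and 1 EGR match. A second Tnc entry (chr4:64047016-64047265), which overlaps the one printed, held 3 E-boxes and 1 EGR match.
Tnmd: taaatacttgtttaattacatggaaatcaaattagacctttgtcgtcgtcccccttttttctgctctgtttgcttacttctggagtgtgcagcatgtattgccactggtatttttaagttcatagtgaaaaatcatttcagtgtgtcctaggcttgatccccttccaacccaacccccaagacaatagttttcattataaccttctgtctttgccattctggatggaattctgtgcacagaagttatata
Thbs2: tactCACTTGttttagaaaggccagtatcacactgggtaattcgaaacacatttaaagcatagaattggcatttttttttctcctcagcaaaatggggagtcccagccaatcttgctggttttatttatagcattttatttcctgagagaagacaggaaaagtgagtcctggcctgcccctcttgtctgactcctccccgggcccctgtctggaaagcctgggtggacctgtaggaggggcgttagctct
Tnc: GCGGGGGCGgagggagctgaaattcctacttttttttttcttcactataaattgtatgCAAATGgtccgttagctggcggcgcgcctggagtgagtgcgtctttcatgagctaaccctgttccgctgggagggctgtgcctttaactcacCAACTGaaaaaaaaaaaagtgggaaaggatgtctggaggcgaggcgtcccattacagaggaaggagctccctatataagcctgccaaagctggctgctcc
Of 32851 mouse promoters of this length, 66.2% held an E-box and 4.7% the EGR letters, so that an E-box match is common. The Thbs4 promoter held 1 E-box, and those of Tnn and Postn held neither motif.

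Library totals ran from 20133332 to 34518477 counts in the 30 coronal libraries and from 7305627 to 18450955 in the 70 others. Mitochondrial genes held 20.7% to 52.4% of the counts in coronal libraries (median 27.2%) and 12.8% to 52.3% in the others (median 17.5%). Within these 100 libraries, depth and mitochondrial share differed between the coronal suture and the rest, and cannot be told apart from the suture. The 18 repeat coronal libraries held 5530060 to 17388841 counts, with at most 17.2% mitochondrial. They stand in for first libraries where second coronal libraries are named below. Complete sutures held 20.3% to 25.7% mitochondrial counts in the coronal and 21.7% to 28.1% in the other sutures. The part of depth and mitochondrial share in the coronal differences was not tested by itself. Mitochondrial genes held over 50% in 3 libraries, and these were coronal E16.5 SM replicate 5, coronal E16.5 frontal OF replicate 5 and frontal E18.5 OF replicate 5. The region labels fitted the osteoblast markers, whose 10 genes together reached 23.3 to 936 CPM (read counts scaled to library size) in SM and 1878 to 22573 CPM in OF libraries, without overlap. Whether a higher level came from more cells of a type or from more RNA per cell cannot be told apart in such samples.

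The members covered a wide range of levels. Divided by exon length, the median over the 100 libraries was 190 CPM per kb for Tnc, 179 for Thbs2, 96.8 for Postn and 82.8 for Tnn. Thbs1 stood at 35.2 CPM per kb, Tnmd at 28.6 and Mkx at 14.4. Egr1 (2.44), Scx (0.95) and Thbs4 (0.148) were the 3 lowest on this scale. Scx was listed at 0 in 4 libraries, all OF, and Thbs4 in 22 libraries, 5 of SM and 17 of OF, whereas the 8 other members had a count in every library. All later levels are CPM without division by length, scaled by the TMM method, and are compared only within a gene. In what follows, a replicate left out is left out of every group.

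**Figure D1:**
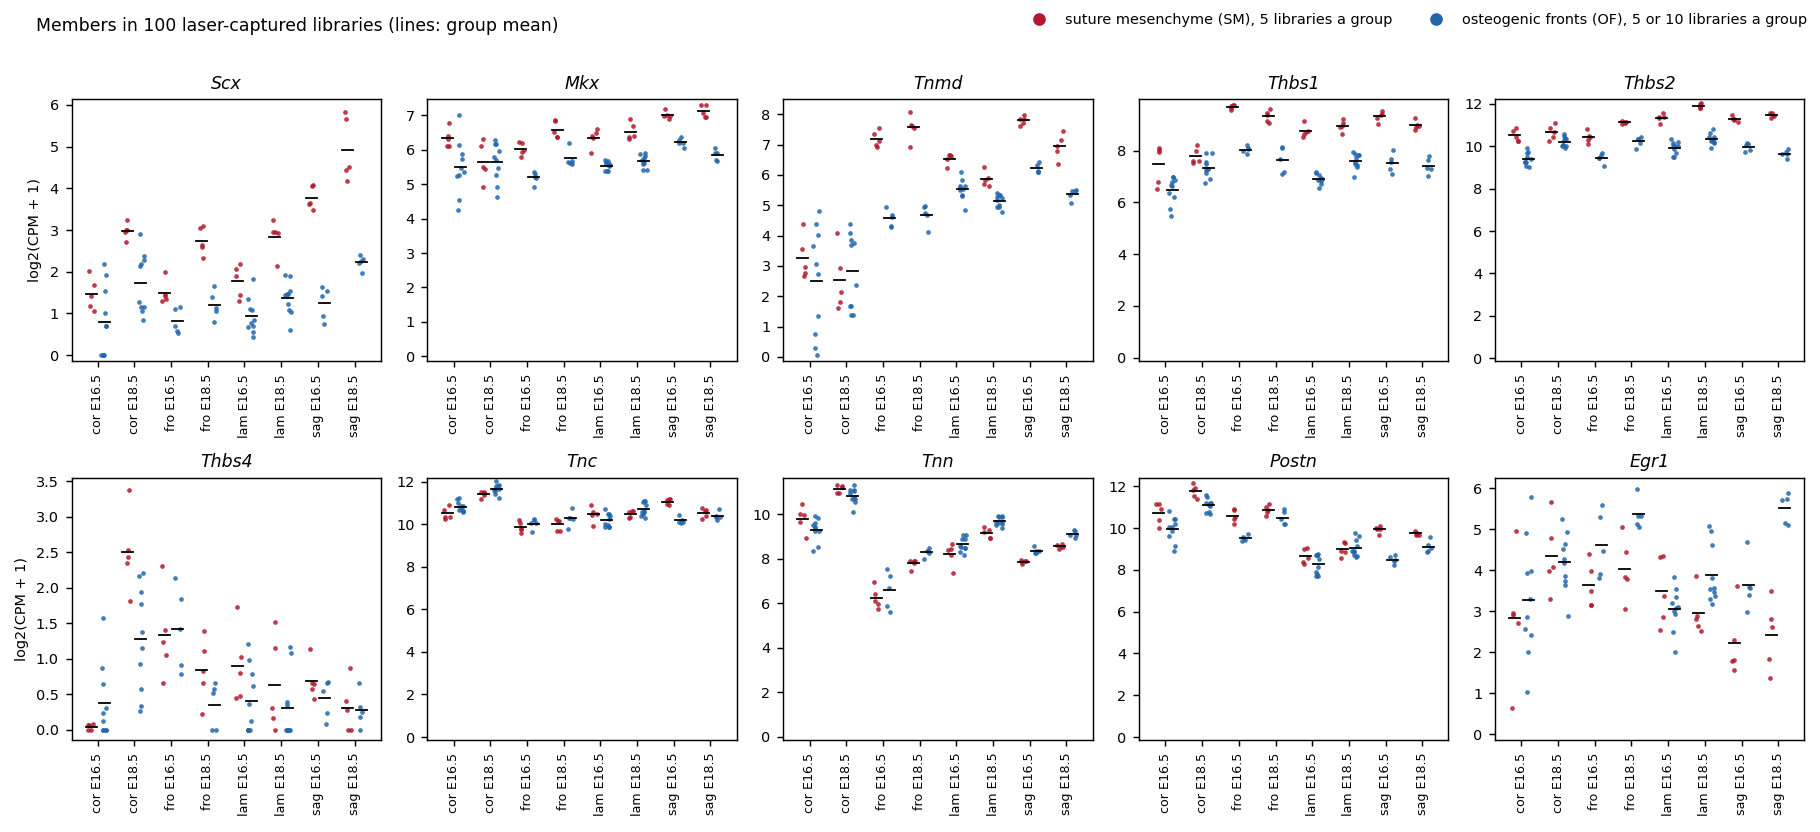
log2(CPM + 1) of each member in the 100 laser-captured libraries, by suture and age, with SM in red, the OFs of a suture together in blue, and black lines for the means of these log2 values. Tnmd lies at or below 26.8 CPM in every coronal library and between 82.0 and 271 CPM in SM of the frontal and sagittal sutures, and Tnn lies higher in coronal SM (486 to 2561 CPM) than in frontal SM (52.0 to 240 CPM).

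Between SM and OF, 6 members were higher in SM on the average over sutures and ages, 2 were lower, and 2 were not called (quasi-likelihood test of edgeR, Benjamini-Hochberg adjusted p under 0.05). Over all 19768 genes tested, 27.6% were called higher and 27.8% lower, so that a call in itself was common and did not set a member apart. The higher members were Scx, Mkx, Tnmd, Thbs1, Thbs2 and Postn, the lower ones Tnn and Egr1. Thbs4 and Tnc were not called. In log2 units the averaged differences were 1.90 ± 0.19 (SE) for Scx, 1.44 ± 0.11 for Tnmd, 1.42 ± 0.07 for Thbs1 and 1.19 ± 0.05 for Thbs2. They were 0.78 ± 0.08 for Mkx and 0.66 ± 0.06 for Postn, and -0.27 ± 0.07 for Tnn and -0.97 ± 0.19 for Egr1. Tnc differed by 0.01 ± 0.05 and Thbs4 by 0.43 ± 0.40. Adjusted p-values of the called members in edgeR's quasi-likelihood test ran from 1.70e-41 for Thbs2 to 6.85e-04 for Tnn. With total counts in place of TMM, 61.7% instead of 49.8% of all calls were higher, and the Tnn difference shrank to -0.15 with an adjusted p of 0.0698 in edgeR's test. In the 60 pairs of SM and OF that shared a litter id, SM was the higher in 59 for Thbs2, 58 for Thbs1, 55 for Scx, 54 for Mkx, 51 for Tnmd and 49 for Postn. SM was the higher in 39 for Thbs4 (OF in 17, the rest tied), 25 for Tnc, 21 for Tnn and 20 for Egr1. Each coronal and lambdoid SM library stood in 2 of these pairs, once for each OF, so that the pairs are not independent.

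**Figure D2:**
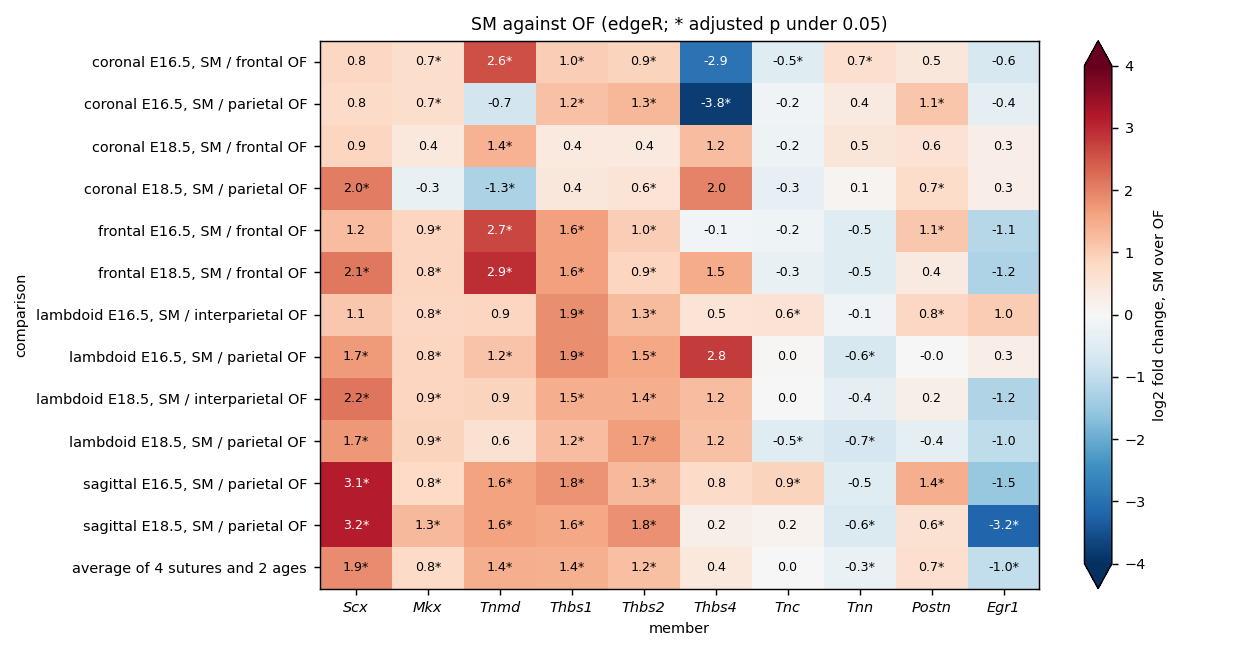
Fitted log2 difference of SM less OF for each member (columns) in the 12 comparisons and averaged with equal weight over sutures and ages (rows), coloured from blue (lower in SM) to red (higher) and with an asterisk where edgeR's quasi-likelihood test called it at an adjusted p under 0.05. Thbs1 and Thbs2 are above 0 in all 12 comparisons, and Tnmd is below 0 against the parietal OF of the coronal suture (-0.74 and -1.27).

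One by one, the 12 comparisons gave 62 calls out of 120 tests of a member, 54 higher in SM and 8 lower. In the frontal suture 5 members were called at E16.5, all higher, where 7.91% of all genes were called, and 5 at E18.5, all higher, with 11.1% of all genes. In the sagittal suture 7 were called at E16.5, all higher (17.7% of all genes), and 8 at E18.5, 6 higher and 2 lower (25.3%). Against the interparietal OF of the lambdoid suture 5 were called higher at E16.5 (11.2% of all genes) and 4 at E18.5 (19.6%). Against its parietal OF 6 were called at each age, 5 higher and 1 lower at E16.5 (23.1%) and 4 higher and 2 lower at E18.5 (24.6%). In the coronal suture at E16.5, 6 members were called against the frontal OF, 5 higher and 1 lower (30.3% of all genes), and 5 against the parietal OF, 4 higher and 1 lower (35.6%). At E18.5 only Tnmd was called against the frontal OF (3.46%), and 4 members were called against the parietal OF, 3 higher and 1 lower (18%). The members were picked with earlier results of these data known, so that a share above that of all genes is a description.

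Scx, the master regulator of tendon progenitors, was low throughout and highest in the sagittal SM. Sagittal SM libraries at E18.5 held 21.9, 20.7, 17.0, 56.2 and 49.8 CPM (replicates 1 to 5) and sagittal OF libraries 3.78, 3.66, 2.90, 4.29 and 3.96 CPM. The groups did not overlap, and SM was 8.90-fold higher (adjusted p = 1.75e-05, edgeR's quasi-likelihood test). At E16.5 sagittal SM held 15.5, 11.5, 15.8, 11.3 and 10.2 CPM against 2.09, 1.89, 1.66, 0.686 and 0.925 CPM in the OF, a difference of 8.85-fold. The SM of the other sutures at E18.5 had means of 6.93 ± 1.07 (SD, n = 5) CPM in the coronal, 6.38 ± 1.85 in the lambdoid and 5.84 ± 1.54 in the frontal suture, which lay within their spread of each other. Scx was called in 7 of the 12 comparisons, all higher in SM. The 5 without a call were the frontal suture at E16.5, the lambdoid interparietal OF at E16.5 and 3 of the 4 coronal comparisons, with differences of 0.78 to 1.24. Of the 7 calls, that of the lambdoid suture at E16.5 against the parietal OF was lost without replicate 2, 4 or 5 (adjusted p up to 0.201 in edgeR's test), that at E18.5 against the same OF without replicate 2 (0.133), and that of the frontal suture at E18.5 without replicate 2 or 4 (0.103 and 0.0798). With voom and limma all 3 of these calls were lost (adjusted p = 0.153, 0.0578 and 0.0515 in the same order), and the first of them was lost with no low-count filter (0.0551, edgeR's test).

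Mkx (chr18:6934518-7004780, -), which maintains the tendon cell state, differed less between regions and was called higher in SM in 10 of 12 comparisons, with differences from 0.69 to 1.28 log2 units. In the sagittal suture at E18.5, SM libraries held 122, 124, 133, 158 and 156 CPM and OF libraries 59.2, 51.4, 50.5, 65.6 and 58.6 CPM. Every SM library lay above every OF library, at a 2.43-fold difference. The exceptions were both coronal comparisons at E18.5, where SM libraries held 68, 78.9, 44.6, 42.1 and 29.4 CPM, frontal OF libraries 29.0, 61.8, 43.2, 37.8 and 23.5 CPM, and parietal OF libraries 71.3, 54.1, 77.2, 71.6 and 51.3 CPM. These 3 groups overlapped, and the parietal OF had the highest mean (65.1 ± 11.6 CPM). At E16.5 the coronal frontal OF held 129 CPM in replicate 5 against 18.1 to 43.8 in the other replicates, and this library was among the 3 rich in mitochondrial counts. The SM difference from this OF (0.69) rose to 1.27 without replicate 5, and its call was lost without replicate 1 (0.49), 3 (0.53) or 4 (0.62) and with the second coronal libraries in place of the first (0.49). The call against the parietal OF (0.69) was lost without replicate 1 (0.62, adjusted p = 0.0528 in edgeR's test). The frontal suture lost its calls without replicate 4 (0.83 at E16.5 and 0.71 at E18.5).

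Tnmd, the marker of mature tendon cells, differed widely between sutures. In the frontal suture, SM libraries held 162, 120, 126, 186 and 138 CPM at E16.5 and OF libraries 18.3, 18.8, 23.7, 24.9 and 29.5 CPM. At E18.5 frontal SM held 121, 197, 271, 188 and 199 CPM and OF 25.7, 30.3, 29.7, 16.54 and 24.9 CPM. The regions did not overlap at either age, and SM was 6.36-fold and 7.67-fold higher (adjusted p = 4.88e-09 and 3.58e-10, edgeR's quasi-likelihood test). Sagittal SM held 207, 231, 229, 252 and 194 CPM at E16.5 and 82.0, 124, 110, 173 and 143 CPM at E18.5, against 67.4 to 85.7 and 32.9 to 44.6 CPM in the OF. These groups were also apart, with differences of 3.02-fold and 3.08-fold. Lambdoid SM held 74.5 to 101 CPM at E16.5 and 48.5 to 75.0 at E18.5, and was called against the parietal OF at E16.5 only (2.23-fold), although each of its 5 libraries lay above every OF library at both ages. With the litter id as a block, the E18.5 difference from the interparietal OF (0.88) was called too (adjusted p = 0.0379, edgeR's test).

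In the coronal suture Tnmd was low and ordered from the parietal to the frontal side. At E16.5 the parietal OF held 11.7, 26.8, 20.1, 15.1 and 7.37 CPM, SM 19.9, 10.9, 5.73, 5.39 and 6.77 CPM, and the frontal OF 5.70, 0.0512, 0.693, 1.56 and 0.234 CPM. At E18.5 the parietal OF held 12.6, 13.4, 16.0, 19.9 and 11.8 CPM, SM 6.61, 15.9, 2.07, 3.45 and 2.54 CPM, and the frontal OF 1.605, 4.12, 2.21, 1.58 and 2.22 CPM. SM overlapped with each OF at both ages, while every parietal OF library lay above every frontal OF library. SM was 2.57 ± 0.39 and 1.38 ± 0.37 log2 units above the frontal OF (adjusted p = 2.18e-07 and 0.0166, edgeR's quasi-likelihood test). Against the parietal OF, SM was 2.40-fold lower at E18.5 (adjusted p = 0.00545), and at E16.5 differed by -0.74 ± 0.34 (adjusted p = 0.0854), or by -0.93 with the litter id as a block (adjusted p = 0.0238, edgeR's test throughout). At E18.5 the call against the frontal OF was lost without replicate 2 (0.94, adjusted p = 0.301, edgeR's test), whose SM library held the 15.9 CPM, and without replicate 4 (adjusted p = 0.067). It was also lost with voom and limma (1.02, adjusted p = 0.319) and with the second coronal libraries (1.19, adjusted p = 0.0789 in edgeR's test). The call against the parietal OF was lost without replicate 3 (adjusted p = 0.0870) or 4 (0.112) in edgeR's test, and the difference widened to -2.04 without replicate 2. With the coronal suture fitted by itself both E18.5 calls were lost (adjusted p = 0.993 against the frontal and 0.388 against the parietal OF, edgeR's test). At E16.5 the difference from the frontal OF widened from 2.57 to 3.46 without replicate 1, whose frontal OF library held the 5.70 CPM, and shrank to 1.68 with the second coronal libraries in place of the first.

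Thbs1 and Thbs2, adhesive glycoproteins that bind CD36 and CD47 and regulate vessel growth and matrix assembly, were called higher in SM in nearly all comparisons, Thbs2 in 11 of 12 and Thbs1, like Mkx, in 10. Their differences were smallest in the coronal suture at E18.5, where Thbs1 differed by 0.40 ± 0.21 and 0.44 ± 0.21 and Thbs2 by 0.39 ± 0.14 from the frontal OF, none called, and by 0.56 ± 0.14 from the parietal OF, which was called and lost without replicate 2 (0.41). Thbs2 reached its highest level in lambdoid SM at E18.5, with 4079, 4268, 3813, 3567 and 3611 CPM against 1777, 1559, 1256, 1317 and 1179 CPM in the interparietal OF and 1372, 1126, 1393, 979 and 1218 CPM in the parietal OF. The lowest SM library, at 3567 CPM, lay above all 10 OF libraries. Sagittal SM at E18.5 showed the widest Thbs2 difference, 3.55-fold, with 2616, 2800, 3019, 3015 and 2881 CPM against 923, 673, 808, 789 and 844 CPM. Thbs1 was highest in frontal SM at E16.5, with 791, 861, 866, 749 and 843 CPM against 271, 296, 253, 231 and 263 CPM in the OF. These libraries were likewise apart, by 3.13-fold. Coronal SM held far less Thbs1 at the same age, 91.0, 276, 257, 246 and 109 CPM, and overlapped with its frontal OF (72.9 to 125 CPM) and its parietal OF (43.8 to 126 CPM).

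Thbs4, a pentameric thrombospondin of tendon and muscle attachments, was near the limit of detection in most groups, with a median count of 6 per library. In the coronal SM at E16.5, 3 libraries had 1 count each and the other two none, so that the whole group summed to 3 counts. The parietal OF held 0.178, 1.96, 0.233, 0.0921 and 0 CPM, of which replicate 2 made 48 of the group's 58 counts. SM was called lower than this OF in edgeR's test (adjusted p = 0.0115), but not with the litter id as a block (0.0588), the second coronal libraries (0.290), voom and limma (0.149) or without replicate 2 (adjusted p = 0.273). The ratio of summed counts, parietal OF over SM, was 19.0 with a 95% counting interval of 6.195 to 94.9. No other comparison of SM with OF was called for Thbs4.

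The tenascins did not follow the tendon genes. Tnc, the hexameric tenascin of tendon, ligament and healing tissue, was called higher in SM in the sagittal suture at E16.5 and against the interparietal OF of the lambdoid suture at E16.5, and lower in 2 comparisons. In the sagittal suture at E16.5 SM held 1881, 2296, 2214, 2309 and 1981 CPM and OF 1080, 1066, 1102, 1173 and 1398 CPM, without overlap, a difference of 0.88 ± 0.14 in log2 units. It was lower in coronal SM than in the frontal OF at E16.5, with 1193, 1640, 1914, 1308 and 1307 CPM against 2023, 2396, 2350, 1843 and 1622 CPM. These groups overlapped, and the difference of -0.48 ± 0.14 was no longer called with total counts (-0.32) or with the second coronal libraries in place of the first (-0.29). The other lower call was the lambdoid suture at E18.5 against the parietal OF (-0.47 ± 0.14), lost without replicate 1 (-0.42) or 3 (-0.42) and with median-ratio or total-count scaling.

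Tnn, or tenascin-W, had its highest group means in the coronal suture at each age. Coronal SM held 486, 1042, 1410, 987 and 796 CPM at E16.5 and 1951, 2561, 1983, 2432 and 2362 CPM at E18.5. Frontal SM held 124, 52.0, 61.9, 67.5 and 85.3 CPM at E16.5 and 240, 236, 226, 238 and 171 CPM at E18.5. The lowest coronal SM library of either age thus lay above the highest frontal one. In the frontal OF of the coronal suture the level was 320, 738, 603, 612 and 683 CPM at E16.5, and SM was 0.68 ± 0.21 log2 units higher (adjusted p = 0.0101, edgeR's quasi-likelihood test). The groups overlapped, but SM was the higher in each of the 5 pairs with a shared litter id, and the call was lost without replicate 3 (0.50) and with the second coronal libraries in place of the first (0.55). In the other sutures the calls had the opposite sign. Lambdoid SM at E18.5 held 579, 486, 619, 693 and 484 CPM against 960, 793, 966, 934 and 947 CPM in the parietal OF, a 1.61-fold lower level without overlap (adjusted p = 0.0103), and sagittal SM at E18.5 held 350, 364, 404, 385 and 372 CPM against 632, 538, 599, 531 and 489 CPM, 1.49-fold lower (adjusted p = 0.0347, edgeR's quasi-likelihood test). SM was lower in all 5 such pairs in both. These calls were among the less steady, since the sagittal one was lost without replicate 1 (-0.50), 2 (-0.58), 3 (-0.60) or 4 (-0.60) and with DESeq2 (-0.51) and other scalings, the lambdoid one at E18.5 without replicate 5 (-0.58), and a like call at E16.5 (-0.65) without replicate 3 (-0.59), 4 (-0.58) or 5 (-0.50), with DESeq2 or median-ratio scaling (-0.51) and with total counts (-0.35). With the litter id as a block, Tnn was also called higher in coronal SM against the parietal OF at E16.5 (0.35) and the frontal OF at E18.5 (0.50), and lower in the frontal suture at E18.5 (-0.49), the lambdoid suture at E18.5 against the interparietal OF (-0.39) and the sagittal suture at E16.5 (-0.49).

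Postn, a fasciclin-domain protein that cross-links collagen in periosteum and ligament, was called higher in SM in 6 of 12 comparisons. The widest was the sagittal suture at E16.5, with 987, 1004, 822, 1084 and 1013 CPM in SM against 398, 352, 340, 298 and 415 CPM in OF, which were apart by 2.72-fold. In the coronal suture it was called against the parietal OF at both ages (2.15-fold and 1.68-fold). Coronal SM at E18.5 held the highest levels of all groups, 2954, 4573, 2726, 3821 and 3618 CPM, against 1712, 1638, 2364, 3065 and 1747 CPM in the parietal OF, and the groups overlapped through replicate 4 of the OF. The difference from the frontal OF (0.58 ± 0.19, adjusted p = 0.0713) was called with the litter id as a block (adjusted p = 0.0200, edgeR's test). The call in the sagittal suture at E18.5 (0.62) was lost without replicate 4 (0.57) or 5 (0.56). The lambdoid suture held 207 to 876 CPM over all its libraries, and SM differed there from the parietal OF by -0.01 ± 0.19 and -0.36 ± 0.19. Against the interparietal OF, SM was higher at E16.5 by 0.81 ± 0.19 without overlap (adjusted p = 0.00110 in edgeR's test, 0.0619 with voom and limma), and the E18.5 difference was 0.23 ± 0.19.

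Egr1 (chr18:34859823-34864984, +) was lower in SM on the average of all sutures and ages (-0.97 ± 0.19) and varied widely among replicates. In the sagittal suture at E18.5 SM libraries held 5.97, 5.08, 10.3, 1.56 and 2.54 CPM and OF libraries 34.2, 33.2, 51.2, 52.4 and 58.1 CPM. All 5 OF libraries lay above all SM libraries, and SM was 9.02-fold lower (adjusted p = 2.60e-05, edgeR's quasi-likelihood test). No other comparison was called, though with the litter id as a block the frontal suture at E18.5 (-1.39) and the sagittal suture at E16.5 (-1.66) were. In 4 of the 12 comparisons the uncalled difference was above 0, namely the lambdoid suture at E16.5 (1.03 ± 0.60 from the interparietal OF, with SM higher in all 5 pairs, and 0.27 from the parietal OF) and the coronal suture at E18.5 (0.27 from each OF). Replicates scattered widely, for example 0.555, 30.1, 6.48, 5.60 and 6.71 CPM in coronal SM at E16.5. Replicate 2 was the highest there and in the frontal OF (54.6 CPM) and parietal OF (29.2 CPM) with the same litter id. Markers of several other cell types moved with the region, and the part of these cells in the differences of any member was not tested. In the sutures other than the coronal the summed muscle markers, 6 of 10 tested, had a median of 31.0 CPM in SM (range 7.73 to 268) and 4.53 in OF (0.933 to 97.5), the 5 mast cell markers 198.2 (53.6 to 452) and 56.3 (12.6 to 258), and the 9 of 11 chondrocyte markers tested 380 (203 to 593) and 135 (96.2 to 290). Proliferation markers, 10 of 10 tested, were lower in SM of those sutures, at a median of 900 CPM (356 to 1360) against 1449 CPM in OF (823 to 2654), and in the sagittal suture at E18.5 at 605 to 837 CPM against 1569 to 2200 CPM. Macrophage markers were higher in SM at E18.5 without overlap in the frontal (228 to 308 against 125 to 199 CPM), lambdoid (139 to 253 against 98.7 to 136 CPM) and coronal sutures (147 to 195 against 70.1 to 133 CPM). Chondrocyte markers in the coronal suture at E18.5 stood at 250.1 to 339 CPM in SM and 89.1 to 202 CPM in OF. Its endothelial markers at E18.5 stood at 274 to 312 CPM in SM and 70.5 to 113 CPM in the parietal OF, while the frontal OF overlapped with SM (193 to 402 CPM). Hypodermis markers in the coronal suture at E16.5 were lower in SM (363 to 907 CPM) than in the frontal OF (1012 to 1693 CPM) and parietal OF (1136 to 1619 CPM). In the coronal suture the muscle markers stood at 0.808 to 5.44 CPM in SM and at 0 to 5.62 CPM in OF. Markers of the ectocranial mesenchyme, the fibrous layer above the bones, summed to a median of 1825 CPM in SM of the other sutures (1371 to 3427), against 711 CPM in coronal SM (505 to 1012) and 1121 CPM in OF of the other sutures (569 to 3658). No tested marker in these lists was at 0 in all libraries.

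The age comparison asked which members changed from E16.5 to E18.5. Of 80 tests, 27 were called, 25 of them higher at E18.5. In the coronal suture 6 members were called in SM, 5 higher and 1 lower (27.1% of all genes), and 7 in its OFs jointly, all higher (33.1%). In the frontal suture 2 were called in SM (2.33%) and 3 in OF (4.34%), and in the lambdoid suture 2 in SM (2.96%) and 5 in the OFs (3.29%), all higher. In the sagittal suture 1 was called in SM, lower (1.12%), and 1 in OF, higher (1.6%). The coronal and lambdoid OF tests took the libraries of both OFs as independent, although these share litter ids. No age test was run with the litter id as a block. The coronal suture also had the largest shares of all genes called. Its mitochondrial share moved with age as well, from 25.7% to 52.4% over the E16.5 libraries to 20.7% to 27.5% over the E18.5 ones, and genes with a count went from 17274 to 22824 up to 21273 to 25162. Markers of other cell types moved with age there too. The summed pericyte and smooth muscle markers, 8 of 8 tested, went from a median of 248 to 1038 CPM in the frontal OF and from 306 to 731 CPM in the parietal OF, without overlap, and from 329 to 656 CPM in SM with overlap. In SM the 9 macrophage markers went from 68.3 to 184 CPM and the chondrocyte markers from 110 to 275 CPM, both without overlap, as they also did in the frontal OF. Osteoblast markers in the frontal OF went from 9893 down to 2640 CPM, without overlap. Lists also moved without overlap in the other sutures, among them the following. In sagittal OF, osteoblast markers went from 5090 to 9304 up to 11155 to 22573 CPM, endothelial markers from 63.0 to 126 up to 201 to 304 CPM and hypodermis markers from 674 to 797 up to 883 to 1102 CPM. In the lambdoid interparietal OF, osteoblast markers went from 4783 to 5873 up to 7128 to 10503 CPM, while in its parietal OF the ages overlapped. Dura mater markers in frontal SM went from 302 to 633 down to 207 to 255 CPM. In frontal SM the ectocranial markers went from 1492 to 2281 CPM at E16.5 up to 2750 to 3427 CPM at E18.5, mast cell markers from 57.8 to 143 up to 295 to 452 CPM and proliferation markers from 907 to 1032 down to 511 to 675 CPM. In sagittal SM, muscle markers went from 71.6 to 82.1 down to 18.4 to 22.8 CPM and proliferation markers from 1189 to 1360 down to 605 to 837 CPM. Pericyte and smooth muscle markers were higher at E18.5 in both lambdoid OFs and in sagittal OF, with medians of 310 to 514 CPM in the lambdoid parietal OF, for example. The part of these shifts in the age changes was not tested, beyond leaving out the libraries over 50% mitochondrial.

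**Figure D3:**
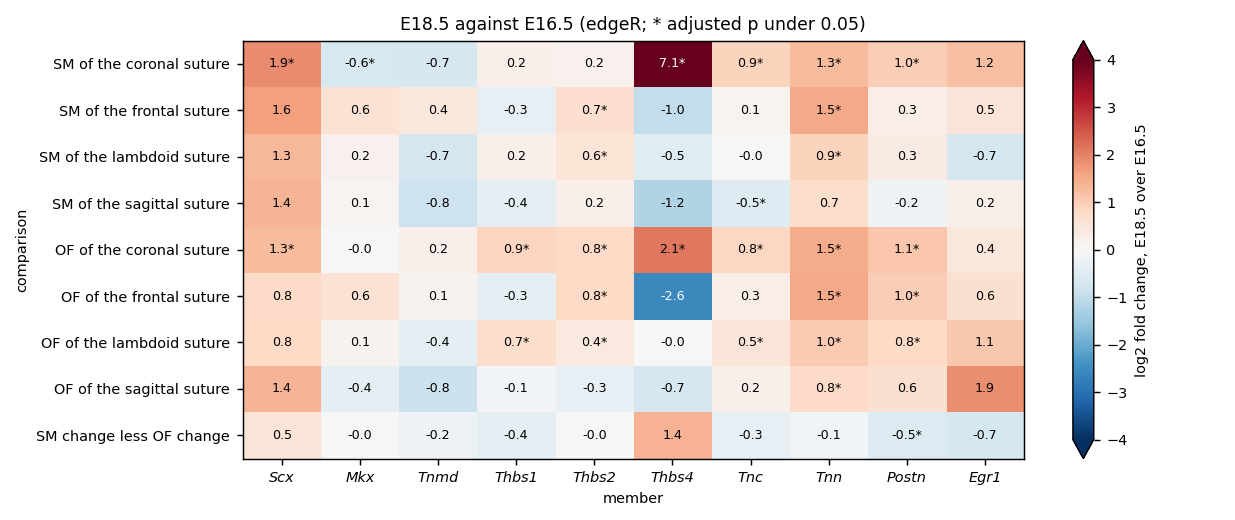
Fitted log2 difference of E18.5 less E16.5 for each member (columns) in SM and OF of each suture, and the SM change less the OF change (rows), coloured from blue (lower at E18.5) to red (higher) and with an asterisk where edgeR's quasi-likelihood test called it at an adjusted p under 0.05. Tnn lies between 0.69 and 1.52 in all 8 rows of a single region, and the Thbs4 value of coronal SM, beyond the colour scale, rests on 3 counts at E16.5.

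Tnn rose with age in 7 of 8 comparisons, the most of any member, and the remaining one, sagittal SM, differed by 0.69 ± 0.21 (adjusted p = 0.102, edgeR's test) with libraries at 214 to 248 CPM at E16.5 and 350 to 404 CPM at E18.5, without overlap. The rise was 2.84-fold in frontal SM and 2.88-fold in frontal OF, 2.39-fold and 2.79-fold in coronal SM and OF, 1.87-fold and 2.07-fold in lambdoid SM and OF, and 1.70-fold in sagittal OF. The call in sagittal OF was lost without replicate 2 (0.75), 3 (0.74) or 4 (0.80), with total counts (0.65) and with the second coronal libraries in the fit (0.76), and that in lambdoid SM without replicate 4 (0.86). Thbs2 rose in 5 comparisons, namely frontal and lambdoid SM and OF and coronal OF, by 1.32-fold to 1.75-fold. The lambdoid OF call (0.40) was lost without replicate 1 (0.32), 2 (0.35) or 3 (0.36) and with total counts (0.34), which also cost the lambdoid SM call (0.42). In coronal SM, Thbs2 differed by 0.17 ± 0.14.

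Tnc rose in coronal SM (1.85-fold), coronal OF (1.79-fold) and lambdoid OF (1.44-fold). In sagittal SM it was lower at E18.5, at 1224, 1355, 1551, 1647 and 1723 CPM against 1881, 2296, 2214, 2309 and 1981 CPM. These groups did not overlap, but the call (-0.51 ± 0.14, adjusted p = 0.0419, edgeR's test) was lost without replicate 1 (-0.49), 2 (-0.45), 3 (-0.50) or 4 (-0.53), with total counts (-0.59) and with the second coronal libraries in the fit (-0.51). Postn rose in coronal SM (2.00-fold) and in coronal (2.16-fold), frontal (1.99-fold) and lambdoid (1.75-fold) OF. Coronal SM libraries of Postn held 2284, 1027, 1353, 1944 and 2254 CPM at E16.5 and at least 2726 CPM at E18.5. Scx rose in coronal SM from 1.67, 1.07, 3.03, 2.19 and 1.27 CPM to 8.53, 6.69, 6.94, 6.95 and 5.52 CPM, by 3.74-fold and without overlap (adjusted p = 0.00972, edgeR's quasi-likelihood test), and in coronal OF by 2.39-fold with overlap, a call lost without replicate 5 (0.92). With the second coronal libraries or with voom and limma, the OF difference grew from 1.25 to 2.02 or 2.82. Both Scx calls were lost with the coronal suture fitted by itself (adjusted p = 0.302 in SM and 0.313 in OF, edgeR's test). Scx had a higher mean at E18.5 in each of the 8 comparisons, the other 6 uncalled. Mkx was lower in coronal SM at E18.5 (-0.64 ± 0.23), where the groups overlapped and the call was lost without replicate 4 (-0.59) or 5 (-0.38) and with total counts (-0.25). Thbs1 rose in coronal (1.81-fold) and lambdoid (1.64-fold) OF. Tnmd and Egr1 were called in none of the 8. Some uncalled age comparisons had groups that did not overlap, and how many of all genes did so was not counted. Among these, Tnmd stood at 194 to 252 CPM at E16.5 and 82.0 to 173 CPM at E18.5 in sagittal SM (-0.82 ± 0.33) and at 67.4 to 85.7 and 32.9 to 44.6 CPM in sagittal OF (-0.85 ± 0.34), and Egr1 at 6.94 to 24.9 and 33.2 to 58.1 CPM in sagittal OF (1.86 ± 0.59).

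Thbs4 was the extreme case. Coronal SM had 3 counts over 5 libraries at E16.5 and 579 at E18.5, where the libraries held 4.41, 2.498, 9.37, 4.11 and 4.76 CPM. The ratio of summed counts was 176 with a 95% counting interval of 59.9 to 856, which covers counting error alone, and edgeR's quasi-likelihood test called the gene (adjusted p = 3.16e-05). With the second coronal libraries in place of the first, the fitted difference fell from 7.09 to 4.56 log2 units (adjusted p = 0.00655 in edgeR's test). In coronal OF it was called too, by 4.36-fold with overlapping groups, and this was lost without replicate 1 (1.72) or 3 (1.85) and with the second coronal libraries in place of the first (0.99), while it rose to 3.12 without replicate 2. In the other sutures the uncalled differences ran from -2.58 to -0.03 log2 units.

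A separate test asked whether the change with age differed between SM and OF, over all sutures. Of the 10 members 1 was called, Postn, at -0.53 ± 0.12 (adjusted p = 0.0143, edgeR's quasi-likelihood test), in a test that called 0.703% of all genes. On the average of the sutures Postn rose less in SM than in OF. In the frontal suture SM held 1904, 1157, 1389, 1484 and 1858 CPM at E16.5 and 1543, 2049, 2252, 1725 and 1866 CPM at E18.5. Frontal OF held 833, 697, 671, 770 and 739 CPM and then 1155, 1943, 1178, 1371 and 1724 CPM. There the SM ages overlapped and the OF ages did not. The sutures were not alike in this. Coronal means went from 1772 to 3538 CPM in SM, from 1295 to 2374 in the frontal OF and from 824 to 2105 in the parietal OF. Sagittal means went from 982 down to 860 CPM in SM and from 361 up to 561 CPM in OF. The call was lost without replicate 1 (adjusted p = 0.0524), 4 (0.139) or 5 (0.0849) in edgeR's test, with voom and limma (0.0848) and with the second coronal libraries in place of the first (0.077).

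The mean SM less OF difference of the coronal suture was set against the mean of the other sutures for each gene. By edgeR's quasi-likelihood test 7 members differed, 5 lower and 2 higher, where 21.3% of all genes were called. Tnmd differed by -1.28 ± 0.26, Thbs1 by -0.89 ± 0.16, Mkx by -0.54 ± 0.17, Thbs2 by -0.53 ± 0.10 and Tnc by -0.40 ± 0.10. Tnn differed by 0.89 ± 0.15 and Egr1 by 1.14 ± 0.41. Scx (-1.03 ± 0.43, adjusted p = 0.0722) and Thbs4 (-1.75 ± 0.80) were not called, and Postn differed by 0.08 ± 0.14. Scx depended on the tool, since it was called with DESeq2 (adjusted p = 0.0257) and without replicate 1 in edgeR's test (-1.42, 0.0307) but shrank to -0.10 with voom and limma (adjusted p = 0.909). With each suture fitted by itself, 11 called values of the coronal suture lost their call, 3 of Mkx, 3 of Scx, 2 of Tnmd, 2 of Thbs4 and 1 of Tnn. For Mkx these were SM against each OF at E16.5 and the age change in SM. For Scx they were SM against the parietal OF at E18.5 and the age changes in SM and OF. For Tnmd they were SM against each OF at E18.5. For Thbs4 they were SM against the parietal OF at E16.5 and the age change in OF, and for Tnn SM against the frontal OF at E16.5. The Tnc call was lost with total counts (-0.29) and the Mkx call without replicate 3 (-0.45) or 4 (-0.50), and the Egr1 call without replicate 2 (0.75) or 4 (1.05) and with voom and limma. Ectocranial markers, lower in coronal SM as given above, moved in the same direction as Tnmd and Thbs1, and suture mesenchyme markers moved the other way, with a median sum of 4321 CPM in coronal SM (3801 to 5444) and 2050 CPM in SM of the other sutures (1479 to 3707). Mast cell markers summed to 1.55 to 21.8 CPM in coronal SM, below every SM library of the other sutures, and hypodermis markers had medians of 798 CPM in coronal SM and 1218 in coronal OF, against 1382 and 885 CPM in SM and OF of the other sutures. Osteoblast markers summed to a median of 433 CPM in coronal SM (253 to 936) and 87.1 CPM in SM of the other sutures (23.3 to 407). In OF their medians were 8942 CPM in the coronal suture and 7129 CPM in the others. Of 12 osteoblast genes tested in this contrast, 6 were called higher, 0 lower and 6 not (median 1.84), where 12.8% of all genes were called higher and 8.45% lower. The part of all these markers in the differences was not tested.

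The 16 libraries of complete E18.5 sutures held all 4 sutures in each of 4 sets named by a code. The labels call them normalization controls and do not say whether the sets share RNA, so that their spread may be technical and no test was made. Tnmd stood at 29.9, 18.1, 18.2 and 30.2 CPM in the complete coronal suture (sets C, IF, L and S) and at 223, 137, 147 and 187 CPM in the frontal suture. It stood at 79.0, 53.9, 50.3 and 74.5 CPM in the lambdoid and at 251, 147, 159 and 227 CPM in the sagittal suture. Within each of the 4 sets the order was sagittal, frontal, lambdoid, coronal. Tnn took the opposite place, with 556, 637, 734 and 532 CPM in the coronal suture, 95.6 to 128 CPM in the frontal, 181 to 227 in the lambdoid and 222 to 312 in the sagittal suture. Tnc was likewise highest in the coronal suture in every set (1459 to 1579 CPM against 448 to 958 elsewhere). Egr1 was highest there as well (46.1 to 79.7 CPM against 13.2 to 33.5), and Mkx stood at 32.4 to 48.9 CPM, below every frontal (67.5 to 76.6) and sagittal (88.9 to 104) library but not below the lambdoid ones (26.7 to 36.9). Thbs4 reached 6.28 to 8.39 CPM in the lambdoid suture, where no captured E18.5 library passed 1.84 CPM. Postn reached 1379 to 1865 CPM there and 1373 to 1736 CPM in the sagittal suture, against at most 872 and 944 CPM in captured E18.5 libraries. Tnn and Tnc went the other way in all 4 sutures, where every captured E18.5 library lay above every complete one. For Tnn, captured libraries held at least 1085 CPM in the coronal, 171 in the frontal, 477 in the lambdoid and 354 in the sagittal suture. Complete ones held at most 734, 128, 227 and 312 CPM in the same order. Mkx did likewise in the lambdoid suture (at least 41.5 against at most 36.9 CPM). Captured and complete libraries were scaled together for these values, so that captured levels differ slightly from those given above.

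**Figure D4:**
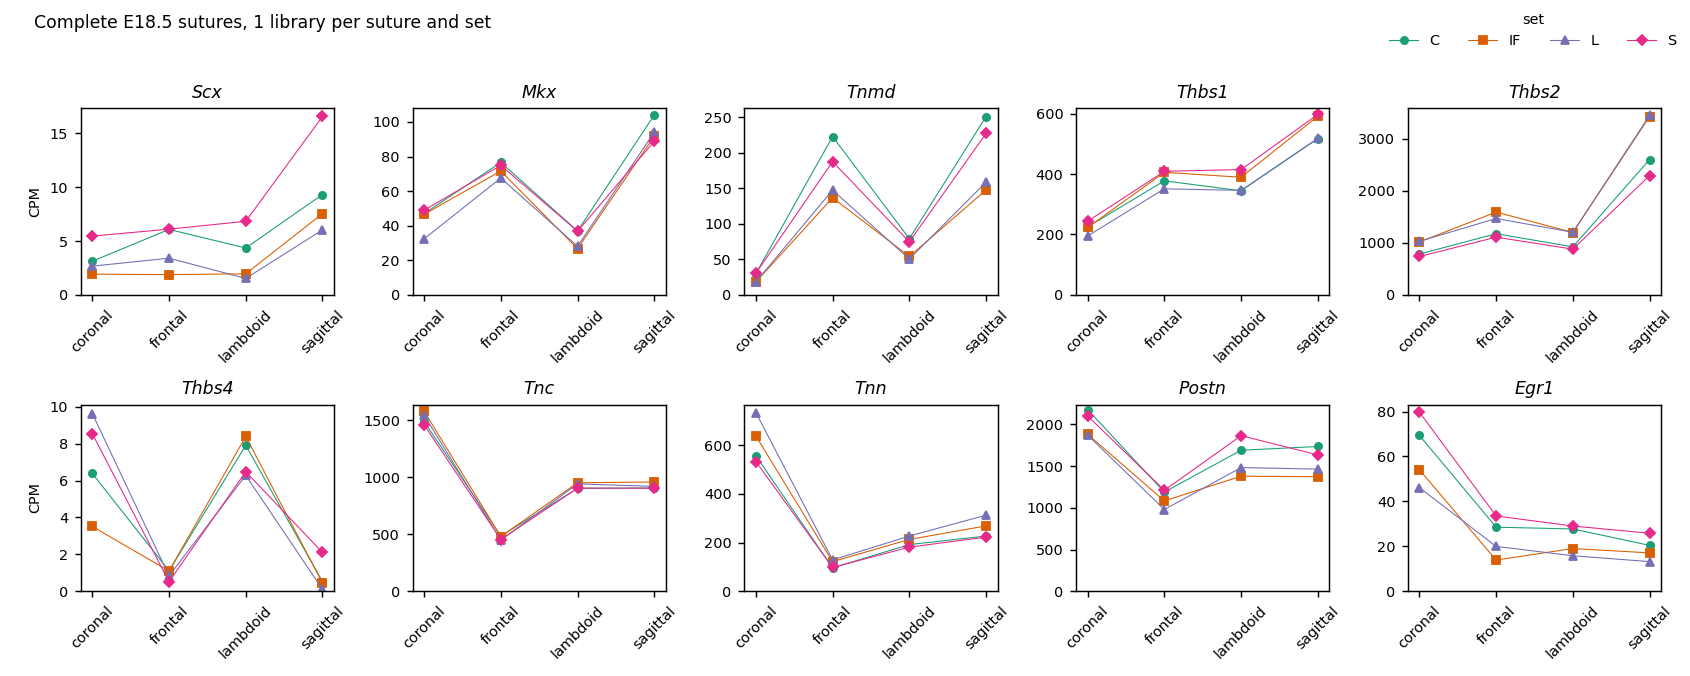
CPM of each member in the 16 complete E18.5 sutures on a linear axis from 0, with 1 marker per library and a thin line joining the libraries of a set. Tnmd is lowest in the coronal suture (18.1 to 30.2 CPM, against 50.3 to 251 CPM elsewhere), where Tnn is highest (532 to 734 CPM, against 95.6 to 312 CPM).

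The 18 repeat libraries of coronal regions were set beside their first libraries, since nothing in the labels tells how they arose. Scx was higher in the repeat in 14 of 18 pairs, with a median change of 1.09 log2 units, and Tnmd in 15 (0.64). Tnn was higher in none (-0.42), Thbs2 in none (-0.31) and Postn in 1 (-0.35). Egr1 was higher in 13 (0.54) and Thbs4 in 12 (0.27), and the median changes of Tnc (-0.13), Mkx (-0.10) and Thbs1 (0.07) were smaller.

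Genes of related lists were read beside the members, from lists drawn up with earlier results of these data known. Of 24 further tendon genes 23 were tested, and 15 were higher in SM, 5 lower and 3 not called in the averaged comparison, with a median of 0.77 log2 units where all genes had 0.04. Of all genes, 27.6% were called higher and 27.8% lower in that comparison. The 4 with the largest differences were Kera (3.67 ± 0.41), a proteoglycan of cornea and tendon, Chodl (3.44 ± 0.16), a membrane lectin, Abi3bp (2.38 ± 0.10), a matrix protein, and Col14a1 (2.18 ± 0.16), a fibril-associated collagen. In the coronal comparison this list had a median of -0.98 against 0.09 for all genes, with 15 genes lower, 1 higher and 7 not called, where 8.45% of all genes were called lower and 12.8% higher. Of the relatives of the members and other matricellular genes, 16 tested, 11 were higher, 4 lower and 1 not called (median 0.58). The tenascin relatives Tnr (1.27) and Tnxb (1.02), the thrombospondins Thbs3 (0.78) and Comp (1.10), and the periostin relative Tgfbi (0.42) were called higher in SM, as were Ccn5 (1.59) and Smoc2 (1.45), while Spp1, the bone matrix protein osteopontin, was lower (-3.79). Comp, which both lists hold, averaged 1.02 CPM in SM and 0.576 in OF, and Tnr 0.67 and 0.403.

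Of 14 receptors of the members tested, 8 were higher in SM, 2 lower and 4 not called, with a median of 0.36, against 27.6% of all genes higher and 27.8% lower. Itga8 (0.72) and Itgb8 (0.61), both integrin subunits, Cacna2d1 (0.58), a calcium channel subunit that binds thrombospondins, and Itgb5 (0.57) showed the largest differences. Of 18 immediate early genes tested, 9 were lower in SM like Egr1, 3 higher and 6 not called (median -0.32, beside the same shares of all genes), led by Egr3 (-2.41), Klf4 (-1.93), Klf2 (-1.75) and Fos (-1.31). Of 12 osteoblast genes 11 were lower in SM and 1 was not called (median -4.33), led by Dmp1 (-7.58), Ibsp (-6.58), Phex (-6.07) and Mepe (-6.03).

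Over the 20 group means of log2 CPM, the members most like each other were Tnc and Tnn (Pearson's r = 0.80), Scx and Thbs2 (0.80) and Mkx and Thbs2 (0.77), given as a description since groups share sutures, ages and libraries of like depth. Among all genes tested, Tnmd was most like Radil (0.94), Inha (0.93) and Galnt17 (0.93), Tnn most like Mfap3l (0.90), Kif1bp (0.89) and Plod2 (0.89), and Postn most like Tgfb2 (0.93), Sobp (0.92) and Amacr (0.92). Egr1 was most like Egr3 (0.83), another early growth response factor.

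In dissociated coronal sutures each transcript carried a unique molecular identifier (UMI), and the E16.5 libraries kept 466 and 337 cells with median depths of 2501 and 2121 UMIs. The E18.5 libraries kept 2412 and 1577 cells with median depths of 18476 and 7131 UMIs. The libraries shared 1 barcode at E16.5 and 5 at E18.5, and none across ages. The ages were made with different versions of the capture kit, from whose effect that of age cannot be told apart, and each library is 1 pool, so that levels, in UMIs scaled as CPM to the UMIs of the cluster in that library (UMI CPM), are given per library with exact 95% Poisson intervals for counting error and without a test. Each age was clustered by itself, and the members took no part in the clustering. No doublet caller was run. The only cells left out were those without more than 800 genes and those outlying in UMIs, genes or, upwards, mitochondrial share. As a measure of free RNA, macrophage-like cells at E18.5 held 100 and 99.0 UMI CPM of Postn (libraries 1 and 2), 47.6 and 52.9 of Tnn, 38.6 and 50.9 of Tnc and 16.0 and 6.86 of Tnmd. Their median depth was 17239 UMIs, and that of the ectocranial mesenchyme-like cells described next 17824.5.

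**Figure D5:**
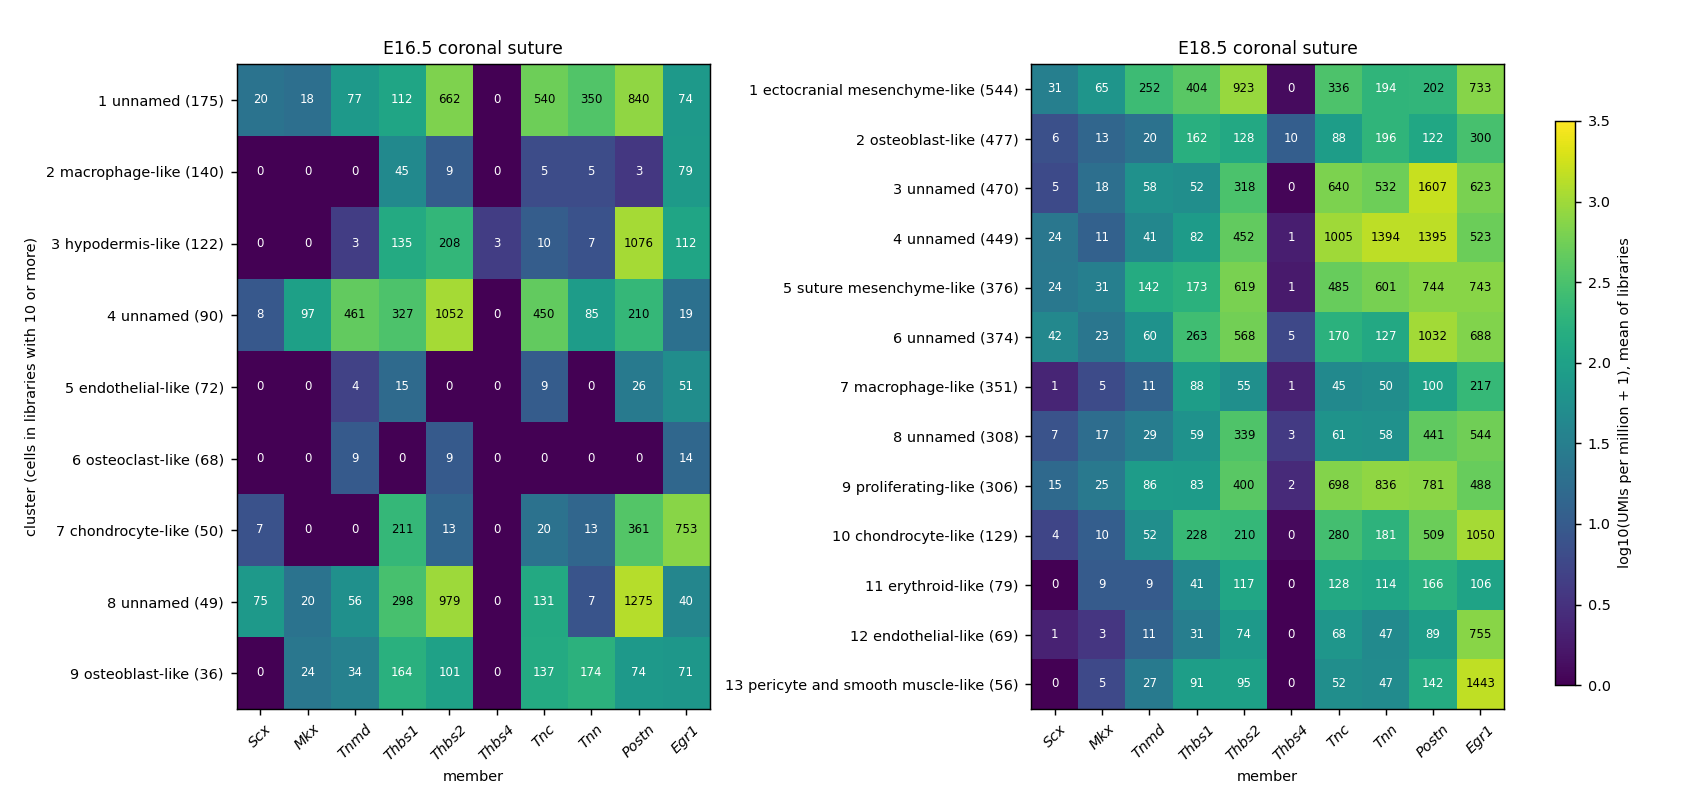
UMI CPM of each member (columns) in the cell clusters of the coronal suture (rows, with their cells) at E16.5 and E18.5, printed as the mean of the libraries with 10 or more cells of the cluster and coloured by log10(value + 1). Tnmd, Mkx, Thbs1 and Thbs2 are highest in cluster 4 at E16.5 and cluster 1 at E18.5, and Tnc and Tnn in cluster 1 at E16.5 and cluster 4 at E18.5.

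Tnmd and Mkx were highest in other clusters than Tnn at both ages. The highest cluster stood at over 3 times the level of all cells in both libraries for Scx, Mkx, Tnmd and Egr1 at E16.5, and for no member at E18.5. How many of all genes did so was not counted. At E16.5, an unnamed cluster of 90 cells led by Col8a1, Sfrp2, Cxcl14 and Igfbp3 held the most Tnmd, 432 UMI CPM (353 to 524) in library 1 and 489 (307 to 741) in library 2. The level over all cells was 101 and 48.8. The same cluster held the most Mkx (83.1 and 111). Its Thbs1 (366 and 289) and Thbs2 (1060 and 1045) were the highest means, but the cluster with Nppc among its leading genes, described below, came near them (369 and 228, and 988 and 969), with overlapping intervals in each library. At E18.5 the 544 ectocranial mesenchyme-like cells, led by Sfrp2, Igfbp3 and Col8a1, were highest for these same members. Tnmd stood there at 319 (308 to 329) and 186 (161 to 213) UMI CPM, Mkx at 59.2 and 70.8, Thbs1 at 261 and 547 and Thbs2 at 631 and 1214. Suture mesenchyme-like cells held 177 and 106 of Tnmd, and osteoblast-like cells 22.3 and 17.0, against 16.0 and 6.86 in macrophage-like cells. The suture mesenchyme-like cells were led by Aspn, Sostdc1 and Npnt, with the marker Mest among their leading genes. Hhip was instead among the leading genes of an unnamed E18.5 cluster described below. A Tnmd UMI was found in 90.8% and 56.5% of ectocranial mesenchyme-like cells and in 20.9% and 9.59% of macrophage-like cells, the latter a measure of background.

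Tnc and Tnn had their highest means in 1 cluster at each age. At E16.5 this was an unnamed cluster of 175 cells led by Serpine2, Npnt and Crispld2, with 598 (507 to 700) and 482 (398 to 578) UMI CPM of Tnc and 380 (309 to 464) and 320 (252 to 399) of Tnn. For Tnc the order rested on library 1, since in library 2 the cluster led by Col8a1 held 600 (396 to 873) from 19 cells. At E18.5 it was an unnamed cluster of 449 cells led by Tppp3, Dpt and Tnfaip6, with 765 and 1245 of Tnc and 1117 and 1672 of Tnn. Both clusters had Hhip, a suture mesenchyme marker, among their leading genes. The E18.5 one also had Angptl2 of that list, and the E16.5 one Tagln, a smooth muscle marker. Neither reached the 3 markers needed for a name. Tnn stood at 125 and 262 in ectocranial mesenchyme-like cells at 142 and 250 in osteoblast-like cells, and at 651 and 1021 in proliferating cells. Postn was high in the cluster led by Tppp3 (1373 and 1417) and in an unnamed cluster led by Gpx3, Alpl and Lum (1384 and 1830), but only 165 and 238 in ectocranial mesenchyme-like cells. At E16.5 Postn stood at 1054 and 1497 in an unnamed cluster of 49 cells with Nppc and Col14a1 among its leading genes, and at 1076 in hypodermis-like cells of library 1, which held 122 of these 123 cells. In library 1 these were not separated by counting error (836 to 1312 against 962 to 1200).

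Scx was sparse. At E16.5 it was highest in the same E16.5 cluster with Nppc among its leading genes, from 6 and 5 UMIs (79.0 and 71.3 UMI CPM), and at E18.5 in an unnamed cluster led by Gpha2, Nppc and Scara5 (50.6 and 33.0), with 45.8 and 16.54 in ectocranial mesenchyme-like cells. The Poisson intervals of the E18.5 clusters overlapped in each library (45.1 to 56.7 against 41.9 to 49.95, and 18.8 to 53.5 against 9.80 to 26.1), so that these clusters were not separated by counting error. In E18.5 library 1, 611 of 2412 cells had a Scx UMI, 767 a Mkx UMI and 1214 a Tnmd UMI. Of the 767 Mkx cells 541 also held Tnmd, and of the 611 Scx cells 407 did. In E18.5 library 2, where 307 of 1577 cells had a Tnmd UMI, 81 of the 235 Mkx cells and 25 of the 97 Scx cells did. Such shares rise with the depth of a cell and were not thinned. Thbs4 was detected as 1 UMI in all at E16.5 and as 93 and 20 UMIs at E18.5. Of these 47 and 9 lay in osteoblast-like cells, 17.2 (12.6 to 22.8) and 2.89 (1.32 to 5.49) UMI CPM, intervals that did not overlap. In library 2 the cluster led by Gpha2 stood higher, at 8.24 (2.24 to 21.1) from 4 UMIs, and macrophage-like cells held 13 UMIs in library 1 and 0 in library 2. Egr1 was highest in chondrocyte-like cells at E16.5 (648 and 859) and in pericyte and smooth muscle-like cells at E18.5 (1728 and 1159), and ran at 635 and 491 over all E18.5 cells. Macrophage-like cells held 252 and 182 at E18.5. An Egr1 UMI was found in 2287 of 2412 and in 1291 of 1577 E18.5 cells. Captured coronal libraries of that age held 6.41 to 49.4 CPM of Egr1, by another method. Whether dissociation changed the Egr1 levels of the cells was not tested. The share of cells at which a gene was taken as leading a cluster was set after the data were seen.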

How the data were processed

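Regions were cut by laser capture, and their RNA was amplified and sequenced as paired reads. Per the file headers and the labels, the authors trimmed with cutadapt, aligned to mm10 with STAR 2.5.3a, and deposited counts of read pairs per gene from featureCounts 1.6.4 over GENCODE exons, with strand ignored, so that reads of a gene and of an antisense or overlapping gene cannot be told apart. For single cells the deposited values are UMI counts per gene and barcode. The authors' table of log2 ratios of their own comparisons was not used.

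Counts of 100 libraries (20 groups of 5; totals from 7305627 to 34518477) were scaled by TMM, and the 19768 genes that reached 1 CPM in more than 10% of libraries were fitted together by edgeR 4.0.16 in R 4.3.3, with 1 mean per group and two-sided quasi-likelihood tests. Adjustment followed Benjamini and Hochberg over all genes of a comparison, at 0.05. Amplified reads carry no molecular identifiers here, so that counting intervals cover counting error only. On simulated counts for the averaged comparison, the fit recovered 97% of 2-fold and 100% of 4-fold changes. These changes were the same in every suture and age, and no effect of the litter id was drawn. Recovery in single comparisons of 5 libraries with 5, or for genes as low as Thbs4, was not simulated. Alternatives were DESeq2 1.42.0, voom with limma 3.58.1, other size factors and filters, fits of each suture by itself, the second coronal libraries, a block for the litter id and leaving out replicates. SM and OF of 1 number in a suture and age share a litter id per the labels, which do not say whether they came from 1 animal. Deviations from group means had a median r of 0.05 over the 60 pairs sharing an id (15 of them over 0.1) and -0.01 over 240 other pairs (13 of them over 0.1). The id was a block only in an alternative.

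Cells with over 800 genes and within 3 median absolute deviations were kept, where mitochondrial share was limited only upwards. They were clustered without the members in scanpy 1.11.5 (2000 variable genes, 13 principal components, 100 neighbours, Leiden resolution 0.8). A cluster was named from at least 3 markers among its top 50 genes, 1 of them in the top 10, and values are given for clusters with 10 or more cells in a library. All 10 members are named in the text. Of other genes, up to 4 per list with the largest called difference in the averaged comparison are named, with relatives of the members and the genes most correlated with a member. The members and lists were chosen with earlier results of these data known. No value column was left without a sample.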

Additional observations from a re-analysis of the deposited data

Results flagged for a closer look

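Of 200 groups of 5 libraries (10 members in 20 groups), 23 held a library whose gap to the nearest other passed Dixon's limit of 0.71 of the group's range. The limit is set for about 1 in 20 groups of normally distributed values. It was applied here to CPM without a log, also in groups of few counts. How many groups of all genes passed it was not counted, so that the 23 are a description. Egr1 had 7 of them. Egr1 stood at 54.6 CPM in replicate 2 of the coronal frontal OF at E16.5 (others 3.00 to 8.78), at 30.1 in replicate 2 of coronal SM at E16.5 (0.555 to 6.71) and at 24.9 in replicate 2 of sagittal OF at E16.5 (6.94 to 11.0). It stood at 11.1 in replicate 3 of sagittal SM at E16.5 (1.97 to 3.94), at 61.8 in replicate 4 of frontal OF at E18.5 (32.4 to 39.2), and at 29.96 and 13.5 in replicate 5 of lambdoid parietal OF and SM at E18.5 (8.74 to 12.97 and 4.71 to 6.38).

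Thbs4 stood apart where counts were few, at 1.96 CPM in replicate 2 of coronal parietal OF at E16.5 (others 0 to 0.233), 0.536 in replicate 4 of lambdoid parietal OF at E16.5 (0 to 0.0899) and 1.24 in the same replicate number at E18.5 (0 to 0.275). It also stood at 1.11 in replicate 5 of lambdoid interparietal OF at E18.5 (0 to 0.315) and at 1.205 in replicate 2 of sagittal SM at E16.5 (0.345 to 0.578). Scx stood at 3.52 CPM in replicate 3 of coronal frontal OF at E16.5 (0 to 1.00), 3.40 in replicate 3 of coronal parietal OF at E18.5 (1.09 to 1.42) and 2.98 in replicate 1 of frontal SM at E16.5 (1.45 to 1.78). Mkx stood at 129 CPM in replicate 5 of coronal frontal OF at E16.5 (18.1 to 43.8) and at 73.1 in replicate 2 of frontal OF at E18.5 (47.5 to 50.5). Tnmd stood at 5.70 CPM in replicate 1 of coronal frontal OF at E16.5 (0.0512 to 1.56) and at 4.12 in replicate 2 of the same OF at E18.5 (1.58 to 2.22).

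Tnn was low in replicate 2 of lambdoid parietal OF at E18.5 (793 CPM, others 934 to 966) and in replicate 5 of frontal SM at E18.5 (171, others 226 to 240). Postn was low in replicate 5 of lambdoid parietal OF at E16.5 (370 CPM, 420 the next), and Tnc was high in replicate 1 of sagittal OF at E18.5 (1683 CPM, others 1168 to 1313).

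Differences of a contrast between groups were flagged for Postn, whose change with age was smaller in SM than in OF (-0.53 log2 units), and for 7 members whose SM less OF difference was unlike in the coronal suture and the others. These were Tnmd (-1.28), Thbs1 (-0.89), Mkx (-0.54), Thbs2 (-0.53), Tnc (-0.40), Tnn (0.89) and Egr1 (1.14), all by edgeR's quasi-likelihood test. Complete sutures, which no test used, held more Thbs4 than any captured lambdoid library of the same age, E18.5 (at least 6.28 CPM against 0 to 1.84), and more Postn than any captured E18.5 lambdoid (at least 1379 CPM against 378 to 872) or sagittal library (at least 1373 CPM against 453 to 944).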

How the results depend on the processing

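No called value of a member changed sign under any alternative run. Of uncalled values near 0, the averaged Tnc difference (0.0093) became -0.0128 without replicate 2 (-0.0128 to 0.0569 over the replicates left out), and the differences between age changes became 0.0283 for Mkx (from -0.0287) with the second coronal libraries and 0.0165 for Thbs2 (from -0.0152) without replicate 3 (-0.063 to 0.0165 over the replicates left out). The 62 calls of SM against OF stood at 61 to 67 with other tools, scalings and filters, each suture by itself or the second coronal libraries, at 71 with the litter id as a replicate block (10 gained, 1 lost) and at 54 to 60 without 1 replicate. The 8 averaged calls stood at 7 or 8, the 27 of age at 23 to 40 (most with each suture by itself), and the 7 of the coronal contrast at 5 to 8. The block left the counts of the averaged and coronal comparisons at 8 and 7. The single call of the difference between age changes became 2 with DESeq2, median-ratio size factors, no low-count filter or without the 3 libraries over 50% mitochondrial, an alternative chosen after seeing the data (Tnc being the second), and 0 with voom and limma or the second coronal libraries. Without 1 replicate it ranged from 0 to 1, where the 1 without replicate 5 was Tnc (-0.45, adjusted p = 0.0186 in edgeR's test) and not Postn. Of 119 member values, total counts cost 12 calls, the second coronal libraries 9, voom and limma 8, and leaving out replicate 4 cost 17. Total counts moved the median of all genes by over 0.1 log2 units in 13 of 23 comparisons (-0.20 to 0.35). The averaged split of calls was 49.8% higher, against 57.7% with DESeq2, 57.3% with median-ratio factors and 61.7% with total counts. The 4 single-cell members with a highest cluster over 3 times all cells were 4 or 5 under other filters and clusterings. The cause of these changes was not tested. Low counts limit Thbs4 and Scx, and 5 libraries a group limit all tests.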
